A study of Mus musculus with 6 samples.

Results

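The Wnt signalling genes of the mouse heart were examined at E13.5 in embryos that had lost Wt1 in the Tnnt2 lineage and in their controls. Members were all genes whose symbol is that of a Wnt ligand, a Frizzled receptor, the co-receptors Lrp5 and Lrp6, the secretion factors Porcn and Wls, a secreted or surface inhibitor (Sfrp, Dkk, Wif1, Notum, Kremen, Apcdd1), an intracellular regulator (Axin1, Axin2, Nkd1, Nkd2) or a TCF/LEF transcription factor (Lef1, Tcf7, Tcf7l1, Tcf7l2). The rule used the symbols and no measured value, but it was chosen with earlier results of these data known. It gave 54 of the 46983 genes listed, namely 19 ligands, 2 secretion genes, 12 receptors, 13 inhibitors, 4 intracellular regulators and 4 transcription factors.

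RNA was taken from whole hearts of the C57BL/6 x DBA/2 strain, with 1 heart in each library and 3 hearts in each group. The mutant hearts (replicates 1, 5 and 10) carried the genotype TnnT2Cre;Wt1flox, in which Cre is driven by the cardiac troponin T promoter. The hearts labelled wild type (replicates 2, 3 and 5) lacked Cre. According to the methods of the study both Wt1 alleles were floxed in both groups, and the Cre driver is active in the myocardium and in a fraction of the epicardium. A whole heart also holds epicardial, endothelial, mesenchymal and blood cells, so each value is a sum over cells with and without Cre. The sex of the embryos was not given in the sources used here, and neither was a litter or a batch.

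Wnt proteins are secreted lipid-modified ligands that bind Frizzled receptors on neighbouring cells. With the co-receptors Lrp5 or Lrp6 they stabilise beta-catenin, which enters the nucleus and activates target genes together with TCF/LEF factors, while other Wnt proteins act on cell polarity or calcium without beta-catenin. In the heart, beta-catenin signalling is known for its stage-dependent effects on cardiac progenitors, on the sinus venosus and on the valves, and the branch without beta-catenin for its effects on the outflow tract and the second heart field.

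Each heart gave between 44244665 (wild type 5) and 56373393 (wild type 3) counts over all genes. Wt1 itself, the floxed gene, had an FPKM (counts scaled to the gene's length and to the total count of the heart) of 20.9, 17.3 and 10.2 in wild type 2, 3 and 5 and of 9.29, 17.2 and 17.4 in mutant 1, 5 and 10, so its level in the whole heart did not separate the groups (log2 fold change −0.10, SE 0.31). Gene-level counts do not show whether the floxed part of the transcript was lost. Markers of cardiomyocytes summed to 23610 to 25370 FPKM in the 6 hearts. Some hearts stood apart in other tissues. Lung and foregut epithelial markers summed to 12.7 FPKM in wild type 5 and 11.2 in mutant 5, against 1.09 to 2.32 in the other hearts, and hepatocyte markers summed to 883 FPKM in wild type 3, against 2.97 to 24.7. Erythroid markers summed to 61220 FPKM in wild type 5 and 62900 in mutant 10, against 19350 to 26400 in the other hearts. The deviation of each heart's log2 counts, scaled to library size, from the mean of the 6 hearts was also correlated with gene length. Over 11795 genes, Spearman rho was −0.56 in wild type 5 and positive in wild type 2 (0.38), wild type 3 (0.32) and mutant 5 (0.46). It was −0.0062 in mutant 1 and −0.062 in mutant 10. These values are relative to that mean, so they do not give the length trend of a heart by itself.

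The 2 members that DESeq2 found lower in the mutant hearts were the ligands Wnt2 and Wnt5b, and their promoters are shown for that reason. Neither passed in edgeR's quasi-likelihood test, and both DESeq2 calls depended on single hearts, as given below. The windows run from 250 bases before to 50 bases after the start site, 5′ to 3′ on the strand of the gene, and come from RefSeq (GRCm38.p6). RefSeq gave 1 start for Wnt2 and 3 for Wnt5b, and both genes lie on the minus strand of chromosome 6. Capitals mark the letters GCGTGGG, which is the core bound by WT1 and EGR proteins, and CTTTGAT or CTTTGAA, the core bound by TCF/LEF proteins, on either strand.
Wnt2, chr6:18030396-18030695: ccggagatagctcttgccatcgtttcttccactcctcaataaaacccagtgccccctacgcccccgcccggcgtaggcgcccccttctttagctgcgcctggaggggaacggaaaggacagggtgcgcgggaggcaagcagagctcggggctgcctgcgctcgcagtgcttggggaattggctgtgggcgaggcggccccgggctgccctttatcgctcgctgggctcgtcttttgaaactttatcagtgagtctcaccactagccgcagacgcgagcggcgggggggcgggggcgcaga
Wnt5b start 1, chr6:119544298-119544597: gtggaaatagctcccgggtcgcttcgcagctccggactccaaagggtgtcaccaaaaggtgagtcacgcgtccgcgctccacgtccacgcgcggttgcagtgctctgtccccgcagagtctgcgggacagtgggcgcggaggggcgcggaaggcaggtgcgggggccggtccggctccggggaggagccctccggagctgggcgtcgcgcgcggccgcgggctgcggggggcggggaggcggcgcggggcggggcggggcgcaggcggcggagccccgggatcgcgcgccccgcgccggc
Wnt5b start 2, chr6:119467162-119467461: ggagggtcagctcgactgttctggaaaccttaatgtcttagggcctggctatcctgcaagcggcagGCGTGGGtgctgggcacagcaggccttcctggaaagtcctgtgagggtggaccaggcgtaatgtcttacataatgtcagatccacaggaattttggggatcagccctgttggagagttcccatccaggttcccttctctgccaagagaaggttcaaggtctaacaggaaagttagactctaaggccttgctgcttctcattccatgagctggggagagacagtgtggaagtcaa
Wnt5b start 3, chr6:119449337-119449636: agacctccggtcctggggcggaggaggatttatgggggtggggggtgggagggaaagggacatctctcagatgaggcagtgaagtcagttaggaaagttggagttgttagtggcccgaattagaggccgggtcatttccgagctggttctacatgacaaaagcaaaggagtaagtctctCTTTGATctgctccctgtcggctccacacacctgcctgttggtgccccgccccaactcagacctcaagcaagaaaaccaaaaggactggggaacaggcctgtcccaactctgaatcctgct
None of these letters occurred in the Wnt2 window or in the first Wnt5b window, which was 78.0% G and C. The second Wnt5b window held 1 match to GCGTGGG and the third held 1 match to CTTTGAT. Over the 43 windows of the 35 members with a RefSeq window, GCGTGGG occurred in 6 (14.0%), of the members Dkk2, Kremen2, Wnt1, Wnt4, Wnt5b and Wnt6, against 5.04% of all 32851 windows. Either TCF/LEF form occurred in 3 member windows (6.98%), of Dkk1, Wnt11 and Wnt5b, against 8.65% of all windows. The windows were not matched for their share of G and C, so these shares only describe them. A match gives the letters only, and counts per gene do not show which of the Wnt5b starts was used.

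The E13.5 heart held RNA of most of the pathway. On the FPKM scale, 40 of the 54 members had a mean over 1 and 15 a mean over 10, while 2 ligands (Wnt3a and Wnt8b) had no count in any heart. All receptors, all intracellular regulators and all transcription factors had a mean over 1 FPKM, as against 9 of the 19 ligands and 9 of the 13 inhibitors. The inhibitors had the largest sum of levels, between 263.8 and 334.1 FPKM per heart, and the ligands summed to between 66.4 and 88.4 FPKM. A few genes made up most of each group. Wnt5a and Wnt11 together gave 61.8% of the ligand sum over the 6 hearts, Sfrp2 and Sfrp1 65.8% of the inhibitor sum, and Wls 96.9% of the sum of the secretion genes. The receptors were more evenly spread, since Fzd2 and Lrp6 together gave 43.6% of their sum.

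**Figure D1:**
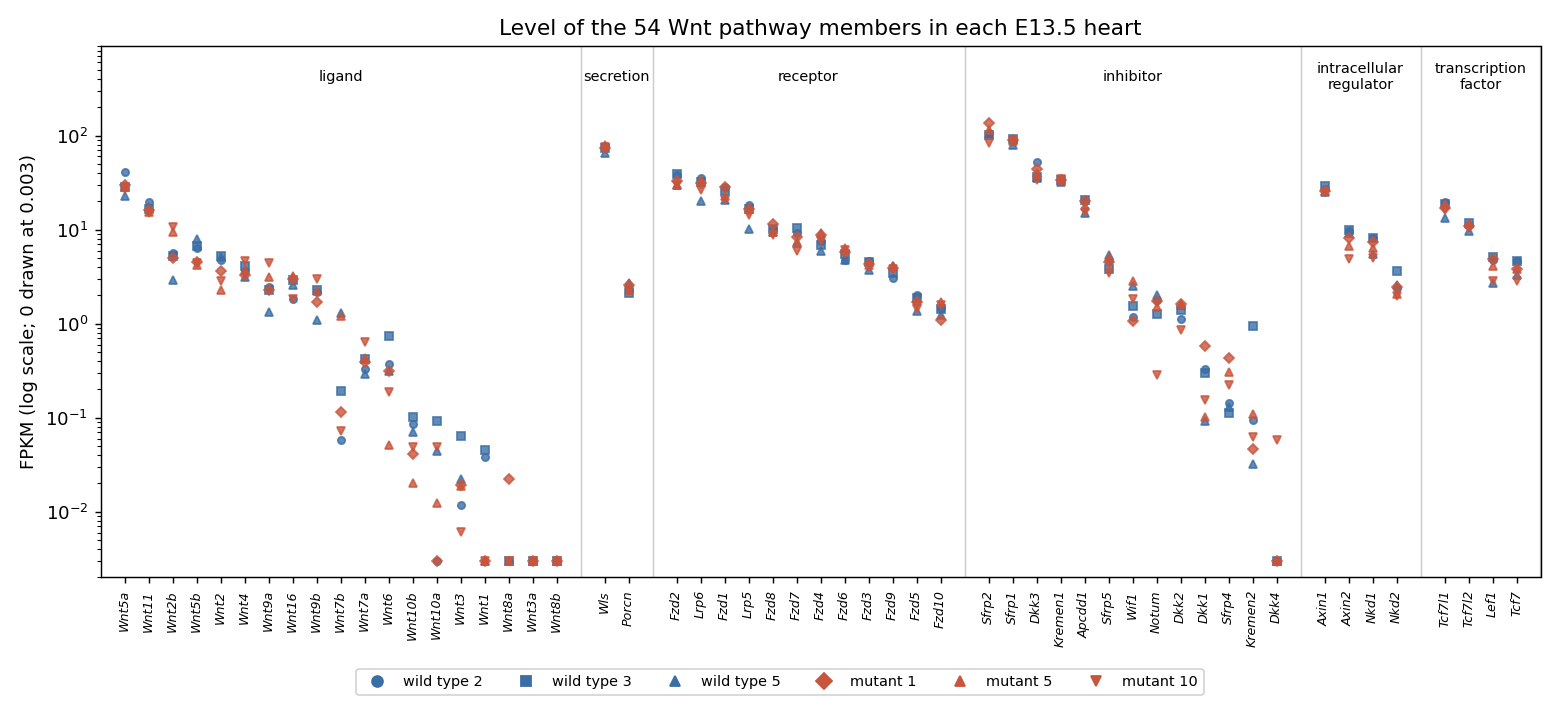
FPKM of each of the 54 members (x axis, ordered by mean level within each role) in each of the 6 hearts, on a log axis with values of 0 drawn at 0.003. Blue symbols are wild type hearts and red symbols mutant hearts. Levels run from 136 FPKM for Sfrp2 in mutant 1 to 0 for Wnt3a and Wnt8b in every heart.

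Of the 54 members, 46 passed the filter on low counts and were tested within a fit of 17473 genes. The other 8 were the ligands Wnt1, Wnt3, Wnt3a, Wnt8a, Wnt8b, Wnt10a and Wnt10b and the inhibitor Dkk4. In edgeR's quasi-likelihood test, no member passed the threshold of 0.05 on the Benjamini-Hochberg adjusted p, which 0% of all genes tested passed, and the smallest adjusted p of any gene was 0.0991. At an unadjusted p under 0.05 there were 8 of 46 members (17.4%), against 5.73% of all genes tested. Of these, 5 were higher in the mutant hearts (Wnt2b, Wnt9a, Fzd4, Fzd6 and Sfrp4, background 3.14%) and 3 were lower (Wnt2, Wnt5b and Axin2, background 2.59%). DESeq2, the tool of the study, gave 2 of the 47 members with an adjusted p a value under 0.05, Wnt5b and Wnt2, both lower (0.285% of 19282 genes were called lower and 0.69% in either direction). The CPM (counts scaled to library size) of the groups did not overlap for 8 of the 46 tested members, 3 higher and 5 lower, against 6.61% and 4.59% of all genes tested. Since the members were chosen with earlier results of these data known, such shares only describe them. The median log2 fold change of the tested members was 0.01, with 24 higher and 22 lower, and their median absolute log2 fold change was 0.14, against 0.13 over all genes tested. The 95% interval of the log2 fold change lay within −1 and 1 for 34 of the 46 members, and for 12 members it did not exclude a doubling or a halving of the level.

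**Figure D2:**
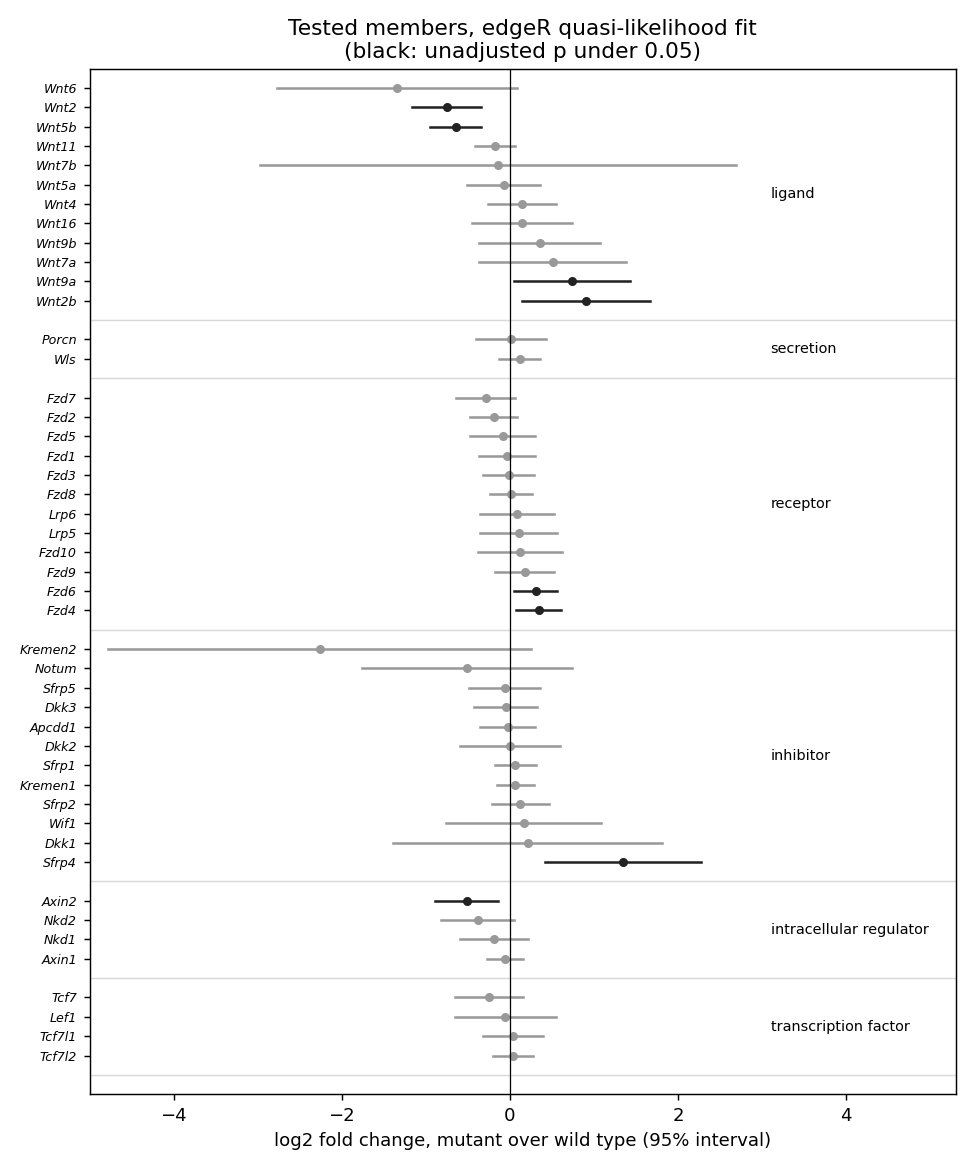
Log2 fold change of mutant over wild type hearts (x axis) of the 46 tested members, ordered within each role, with 95% intervals from edgeR's quasi-likelihood fit. Black marks the 8 members with an unadjusted p under 0.05. The intervals are narrow for the receptors, all of them within −1 and 1, and widest for Wnt7b and Kremen2.

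Among the ligands, Wnt2 and Wnt5b were lower in every mutant heart than in every wild type heart, while Wnt2b and Wnt9a had higher means in the mutant group. Wnt5b (ENSMUSG00000030170, chr6:119432531-119544347), a ligand that acts mainly without beta-catenin, had 799, 842 and 790 counts in wild type 2, 3 and 5 and 518, 499 and 526 in mutant 1, 5 and 10. On the FPKM scale these were 6.40, 6.64 and 7.94 against 4.51, 4.25 and 4.40. The 3 mutant hearts lay close together and below all wild type hearts (4.39 ± 0.13 against 6.99 ± 0.83 FPKM, mean ± SD, n = 3 each). Wnt5b was 0.64-fold its wild type level (log2 fold change −0.64, SE 0.13, 95% interval −0.94 to −0.34). The adjusted p was 0.301 in edgeR's quasi-likelihood test and 0.0115 in DESeq2.

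Wnt2 (ENSMUSG00000010797, chr6:17988940-18030585), a beta-catenin ligand of the venous pole of the heart and of the lung mesenchyme, had 600, 666 and 511 counts in wild type 2, 3 and 5 and 420, 271 and 344 in mutant 1, 5 and 10. In FPKM it was 4.79, 5.24 and 5.12 in the wild type hearts and 3.65, 2.30 and 2.87 in the mutant hearts. The groups did not overlap, and mutant 5 was the lowest heart. The group means were 5.05 ± 0.23 and 2.94 ± 0.68 FPKM (SD, n = 3 each), so that Wnt2 was 0.59-fold its wild type level (log2 fold change −0.75, SE 0.18, 95% interval −1.16 to −0.34). Its adjusted p was 0.405 in edgeR's quasi-likelihood test and 0.025 in DESeq2. Over all alternatives the adjusted p ranged from 0.00532 to 1.0 for Wnt2 and from 0.00826 to 1.0 for Wnt5b. Both DESeq2 calls were lost when wild type 3, mutant 5 or mutant 10 was left out (adjusted p 0.239, 0.287 and 0.239 for Wnt2 and 0.0754, 0.255 and 0.116 for Wnt5b). That of Wnt2 was also lost without wild type 2 (0.110) and that of Wnt5b without mutant 1 (0.113), while both held without wild type 5. The DESeq2 log2 fold change stayed between −0.91 and −0.60 for Wnt2 and between −0.71 and −0.53 for Wnt5b with each heart left out. In these whole hearts, fewer cells that express a gene and less RNA per cell cannot be told apart.

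The summed level of markers of the sinus venosus and sinus node, the inflow myocardium of the heart, was lower in the same hearts as Wnt2 and Wnt5b. The sums were 91.8, 96.0 and 104.9 FPKM in wild type 2, 3 and 5 and 72.7, 70.4 and 69.0 in mutant 1, 5 and 10. Most of that difference lay in Shox2 (mean 22.1 FPKM in wild type and 10.6 in mutant hearts) and Vsnl1 (23.6 and 11.6). Of these 8 markers, 4 were lower at an unadjusted p under 0.05 (Shox2, Isl1, Tbx3 and Vsnl1), against 2.59% of all genes tested, and DESeq2 called Shox2 and Vsnl1, against 0.285%. Markers that did not pass included Rgs6, Hcn4 and Smoc2, with log2 fold changes of −0.15, 0.080 and 0.20. This and the other marker lists were chosen with earlier results of these data known, so such shares only describe the lists. Markers of the lung mesenchyme, another tissue known to express Wnt2, summed to 1.78, 4.88 and 8.35 FPKM in the wild type hearts and 2.33, 5.68 and 1.26 in the mutant hearts, and so overlapped between the groups. The part of either tissue in the lower Wnt2 and Wnt5b was not tested.

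Wnt2b (ENSMUSG00000027840), the paralogue of Wnt2, which acts together with it in lung specification, had 5.71, 5.20 and 2.88 FPKM in wild type 2, 3 and 5 and 5.05, 9.46 and 10.6 in mutant 1, 5 and 10. Mutant 1 lay within the wild type range, and wild type 5 was the lowest heart. Its log2 fold change was 0.91 (SE 0.33, 95% interval 0.15 to 1.67), with an adjusted p of 0.778 in edgeR's quasi-likelihood test and 0.261 in DESeq2. It was 0.67 without wild type 5, 0.66 without mutant 10 and 0.59 with Xist as a covariate. DESeq2 called Wnt2b higher without mutant 1 (adjusted p 0.0121), the lowest in a range up to 1.0 over all alternatives. Wnt9a (ENSMUSG00000000126), a ligand known from the endocardium and the valves, had 2.48, 2.27 and 1.33 FPKM in wild type 2, 3 and 5 and 2.31, 3.17 and 4.40 in mutant 1, 5 and 10. It ranked the hearts much as Wnt2b did, with wild type 5 lowest and mutant 10 highest. The log2 fold change was 0.74 (SE 0.30), with an adjusted p of 0.844 in edgeR's quasi-likelihood test and 0.516 in DESeq2, and it was 0.44 without mutant 10. Without wild type 5 and mutant 10, an alternative chosen after seeing the data, it was 0.21 for Wnt9a and 0.42 for Wnt2b.

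Epicardial markers, of 14 genes, summed to 282, 243 and 172 FPKM in wild type 2, 3 and 5 and to 198, 250 and 294 in mutant 1, 5 and 10. Wild type 5 was thus lowest and mutant 10 highest in this list also, as in Wnt2b and Wnt9a. At an unadjusted p under 0.05, 6 of the markers were higher and 2 lower in the mutant hearts (3.14% and 2.59% of all genes tested). DESeq2 called Krt8 and Aldh1a1 higher and Tcf21 lower (0.405% and 0.285% of 19282 genes). The part of the epicardium in the values of Wnt2b and Wnt9a was not tested.

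The ligands with the highest levels differed little between the groups. Wnt5a, a ligand of the branch without beta-catenin, had 40.9, 28.6 and 22.7 FPKM in wild type 2, 3 and 5 and 30.2, 28.5 and 27.2 in mutant 1, 5 and 10. Its mutant values all lay inside the wild type range, and its log2 fold change was −0.07 (95% interval −0.51 to 0.36), or 0.19 without wild type 2, the highest heart. Wnt11, another ligand of that branch that is expressed in the myocardium, had 19.6, 16.4 and 17.5 FPKM against 16.1, 15.2 and 15.2. The groups did not overlap, but the difference was small (log2 fold change −0.18, SE 0.10, adjusted p 0.956 in edgeR's quasi-likelihood test). In 11 members part of the exon bases lies over a gene on the opposite strand, from 3.15% in Fzd6 to 29.4% in Notum, and among them Wnt5a (4.58%), Wnt11 (8.80%), Axin2 (3.80%) and Fzd5 (17.8%). Whether reads were counted by strand is not given in the sources used here, so such reads may belong to either gene.

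Wnt6 and Wnt7b were singled out after their values were seen. Wnt7b, a ligand of the lung epithelium among other tissues, had 11, 37 and 198 counts in wild type 2, 3 and 5 and 20, 216 and 13 in mutant 1, 5 and 10. Wild type 5 and mutant 5, the hearts with the most lung and foregut epithelial markers, held far more Wnt7b than the others. They also had 64 and 65 counts of Nkx2-1, a defining transcription factor of that epithelium, against 0 to 8 in the other hearts. The log2 fold change of Wnt7b was −0.14 with a 95% interval from −2.97 to 2.69, so that no difference between the groups was detectable. Wnt6, a ligand of the ectoderm and of epithelia, had 31, 63 and 21 counts in the wild type hearts and 24, 4 and 15 in the mutant hearts. Its groups did not overlap in CPM but only just separated, with 0.317 FPKM in wild type 5 and 0.314 in mutant 1. Its log2 fold change of −1.34 (SE 0.62) did not pass the test (adjusted p 0.907 in edgeR's quasi-likelihood test). The other tested ligands, Wnt4, Wnt7a, Wnt9b and Wnt16, had log2 fold changes between 0.14 and 0.51 and overlapping groups.

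Of the ligands at or near the limit of detection, Wnt1 had 5, 6 and 0 counts in wild type 2, 3 and 5 and none in the mutant hearts. With 3 counts set for each mutant heart, the wild type mean CPM was 1.11-fold the mutant one, although wild type 5 itself held none. That ratio takes the wild type mean as exact. The unadjusted p of Wnt1 in DESeq2 was 0.109, so no difference between the groups was shown. Wnt3 had 2, 11 and 3 counts in the wild type hearts and 3, 3 and 1 in the mutant hearts, a ratio of summed counts of 2.29 with a 95% exact interval from 0.891 to 6.58 that covers counting error only. Wnt10b was also low, with 9, 11 and 6 counts against 4, 2 and 5. Wnt8a had 2 counts in mutant 1 and none elsewhere, and Wnt10a had between 0 and 8 counts per heart.

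**Figure D3:**
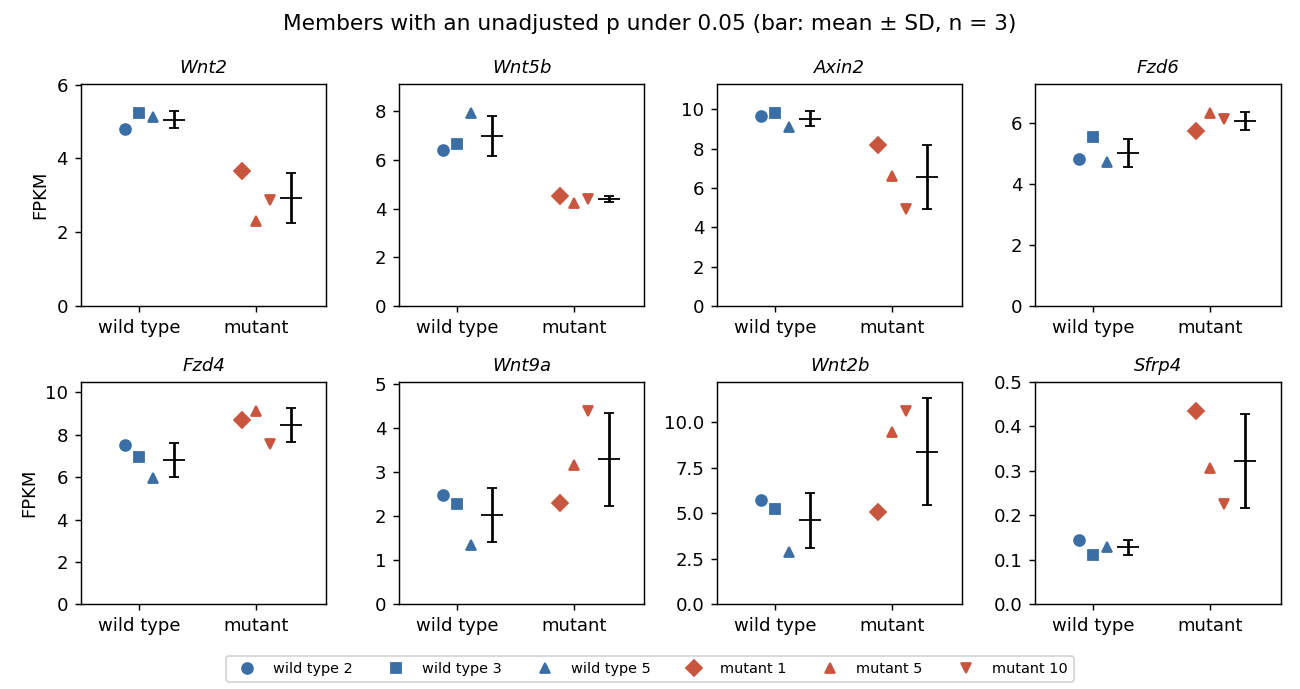
FPKM (y axis, from 0) of the 8 members with an unadjusted p under 0.05 in each heart, with the mean and SD of each group beside the points (n = 3). Wnt2, Wnt5b, Axin2, Fzd4, Fzd6 and Sfrp4 show groups that do not overlap, while mutant 1 lies within the wild type range for Wnt2b and Wnt9a.

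The machinery that releases Wnt proteins differed little. Wls, which carries lipid-modified ligands to the cell surface, had 76.8, 74.8 and 65.0 FPKM in wild type 2, 3 and 5 and 74.3, 80.2 and 75.5 in mutant 1, 5 and 10. Porcn, the enzyme that attaches the lipid, had 2.29, 2.11 and 2.73 FPKM against 2.57, 2.27 and 2.23. Both overlapped between the groups, with log2 fold changes of 0.12 (95% interval −0.12 to 0.36) for Wls and 0.01 (−0.40 to 0.43) for Porcn.

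All 12 receptors passed the filter on low counts, with log2 fold changes between −0.29 (Fzd7) and 0.34 (Fzd4). Fzd4 (ENSMUSG00000049791), a receptor of the vascular endothelium that also binds norrin, had 7.51, 6.94 and 5.94 FPKM in wild type 2, 3 and 5 and 8.68, 9.14 and 7.55 in mutant 1, 5 and 10. The groups only just separated, between 7.51 in wild type 2 and 7.55 in mutant 10. Its log2 fold change was 0.34 (SE 0.12), with an adjusted p of 0.728 in edgeR's quasi-likelihood test and 0.592 in DESeq2, and it was 0.21 without wild type 5 and mutant 5. Fzd6 (ENSMUSG00000022297), a receptor of planar cell polarity, had 4.80, 5.54 and 4.70 FPKM in the wild type hearts and 5.75, 6.33 and 6.13 in the mutant hearts. These groups did not overlap either, at a log2 fold change of 0.31 (SE 0.11) and an adjusted p of 0.767 in edgeR's quasi-likelihood test. Endothelial and endocardial markers summed to 229 to 342 FPKM in the wild type hearts and 303 to 376 in the mutant hearts, lowest in wild type 5 and highest in mutant 5, as was Fzd4. Their part in the value of Fzd4 was not tested.

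The receptors with the highest levels were Fzd2 and the co-receptor Lrp6. Fzd2 had 38.5, 39.5 and 29.9 FPKM in wild type 2, 3 and 5 and 32.9, 29.9 and 29.7 in mutant 1, 5 and 10. Wild type 5 lay with the mutant hearts, and the log2 fold change was −0.19 (95% interval −0.47 to 0.09). Without wild type 5, DESeq2 called Fzd2 lower (log2 fold change −0.30, adjusted p 0.0121, in a range up to 1.0 over all alternatives). That setting called 447 genes in all, against 133 with all 6 hearts. Lrp6 had 35.6, 32.2 and 20.4 FPKM in wild type 2, 3 and 5 and 31.3, 33.8 and 26.4 in mutant 1, 5 and 10, again with wild type 5 lowest. Its log2 fold change was 0.08 (95% interval −0.36 to 0.52) and turned to −0.12 without wild type 5. Low values in wild type 5 were common among the members. It was the lowest of the 6 hearts in CPM for 22 of the 46 tested members (47.8%), against 30.9% of all genes tested, and mutant 10 was lowest for 14 (30.4%), against 22.7%.

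The inhibitors with the highest levels, the secreted Frizzled-related proteins Sfrp2 and Sfrp1, overlapped between the groups. Sfrp2 had 107, 101 and 104 FPKM in wild type 2, 3 and 5 and 136, 115 and 84.1 in mutant 1, 5 and 10. The mutant hearts spread on both sides of the wild type hearts, and the log2 fold change was 0.13 (95% interval −0.22 to 0.47), or −0.02 without mutant 1. An opposite-strand gene covers 16.1% of the exon bases of Sfrp2. Sfrp1 had 88.7, 91.6 and 79.7 FPKM against 89.8, 86.8 and 89.2, a log2 fold change of 0.06 (95% interval −0.18 to 0.31) whose sign turned with the correction for gene length (−0.02).

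Sfrp4, a low-level member of the same family, had 14, 11 and 10 counts in wild type 2, 3 and 5 and 39, 28 and 21 in mutant 1, 5 and 10. Every mutant heart was above every wild type heart. Its mean was 0.128 ± 0.016 FPKM in the wild type hearts and 0.322 ± 0.106 in the mutant hearts (SD, n = 3 each). Its log2 fold change of 1.34 (SE 0.40, 95% interval 0.41 to 2.27) was the largest positive one of the tested members, with an adjusted p of 0.652 in edgeR's quasi-likelihood test and 0.553 in DESeq2. On the log2(FPKM + 1) scale, which understates changes of low genes, it was 0.23. Markers of cushion mesenchyme and fibroblasts summed to 1126 to 1661 FPKM in the wild type hearts and 1667 to 2301 in the mutant hearts, and those of macrophages to 54.1 to 73.6 and 95.1 to 102. Of the 9 cushion and fibroblast markers, 2 were higher at an unadjusted p under 0.05 (Col1a1 and Col1a2, log2 fold changes 0.95 and 0.76) and none lower. The median of that list was 0.05, with values of −0.38 for Pdgfra and −0.31 for Twist1. Of the 9 macrophage markers 8 were higher at an unadjusted p under 0.05, against 3.14% of all genes tested. Their part in the higher values of Sfrp4, Fzd4 and Fzd6 was not tested.

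The Kremen, Dkk, Notum and Wif1 genes include ones that block Lrp5 and Lrp6, remove the lipid of the ligand or bind it. Among these, Kremen2 and Notum are given because 1 heart decided their values, which was seen in the data. Kremen2 had 113 counts in wild type 3, the heart with the most hepatocyte markers, and 3 to 12 in the other hearts, and its log2 fold change of −2.26 (95% interval −4.78 to 0.26) became 0.20 without wild type 3. The part of the hepatocyte markers in it was not tested. Notum had 24 counts in mutant 10 and 114 to 158 in the others, with a log2 fold change of −0.51 that became −0.05 without mutant 10. Notum is the member with the largest overlap with an opposite-strand gene. Dkk4 had no count in the wild type hearts and 4 counts in mutant 10. The other tested inhibitors, Dkk1, Dkk2, Dkk3, Kremen1, Apcdd1, Sfrp5 and Wif1, had log2 fold changes between −0.06 and 0.21. Of these, Dkk1 had 44, 41 and 10 counts in wild type 2, 3 and 5 and 71, 13 and 20 in mutant 1, 5 and 10, and its log2 fold change of 0.21 became −0.84 without mutant 1. That of Wif1 ranged from −0.21 to 0.53 with each heart left out.

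All 4 intracellular regulators were lower in the mutant mean, with a median log2 fold change of −0.29 against −0.0010 over all genes tested. Axin2 (ENSMUSG00000000142), a scaffold of the beta-catenin destruction complex that is also a widely used target gene of the pathway, had 9.63, 9.82 and 9.11 FPKM in wild type 2, 3 and 5 and 8.17, 6.63 and 4.92 in mutant 1, 5 and 10. The wild type hearts lay close together, and the mutant hearts were all lower but spread widely (9.52 ± 0.37 against 6.57 ± 1.63 FPKM, SD, n = 3 each). Axin2 was 0.70-fold its wild type level (log2 fold change −0.51, SE 0.16, 95% interval −0.89 to −0.14). Its adjusted p was 0.688 in edgeR's quasi-likelihood test and 0.329 in DESeq2, and the log2 fold change ranged from −0.68 to −0.36 with each heart left out. Axin1, the constitutive paralogue, had 27.2, 29.1 and 25.1 FPKM against 26.0, 25.8 and 24.9, a log2 fold change of −0.06 (95% interval −0.27 to 0.16) with overlapping groups. Nkd1 and Nkd2, which bind Dishevelled and dampen the signal, had log2 fold changes of −0.19 and −0.38.

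The transcription factors overlapped between the groups. Tcf7l1, which mostly represses target genes, had 19.9, 18.8 and 13.2 FPKM in wild type 2, 3 and 5 and 17.2, 18.9 and 16.0 in mutant 1, 5 and 10. Tcf7l2 had 11.2, 11.8 and 9.75 FPKM against 11.0, 11.5 and 10.4. Wild type 5 was the lowest heart for both, and the log2 fold changes were 0.03 (95% interval −0.32 to 0.39) for Tcf7l1 and 0.04 (−0.20 to 0.27) for Tcf7l2. Both turned negative without wild type 5 (−0.12 and −0.03). Lef1 and Tcf7, which are themselves target genes in many tissues, had log2 fold changes of −0.06 and −0.25.

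**Figure D4:**
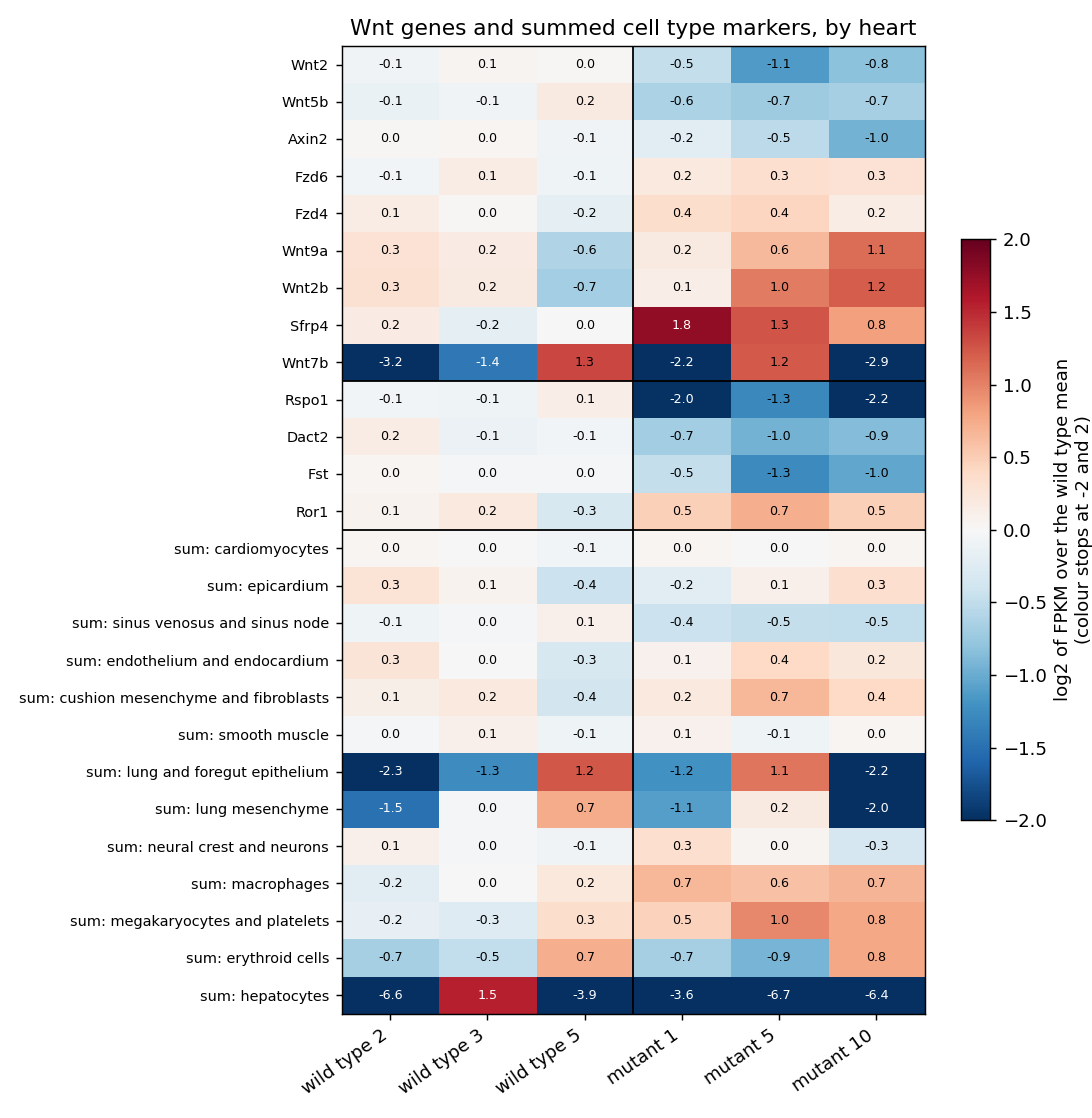
Log2 of the FPKM of each heart (columns) over the mean of the wild type hearts, for the 8 members above and Wnt7b, for 4 other pathway genes, and for the summed FPKM of each marker list (rows). The sinus venosus sum is lower in each mutant heart, as are Wnt2 and Wnt5b, and the lung and foregut sum is high in wild type 5 and mutant 5, as is Wnt7b.

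The rest of the pathway was read from a list of 97 further genes, of which 93 were tested. The list was chosen with earlier results of these data known, so its shares beside those of all genes only describe it. In edgeR's quasi-likelihood test none passed after Benjamini-Hochberg adjustment. At an unadjusted p under 0.05, 3 were higher and 8 lower (11.8% of 93, against 5.73% of all genes tested). DESeq2 called 3 of the 95 with an adjusted p, all lower (0.285% of 19282 genes were called lower and 0.69% in either direction). Their median log2 fold change was 0.02, with 52 higher and 41 lower. The 3 called by DESeq2 were Rspo1, Dact2 and Fst. Rspo1, a secreted protein that strengthens Wnt signalling by keeping Frizzled receptors on the cell surface, had 8.82, 8.64 and 9.99 FPKM in wild type 2, 3 and 5 and 2.32, 3.75 and 1.97 in mutant 1, 5 and 10. No mutant heart came near the wild type hearts. Its log2 fold change of −1.75 (SE 0.24) was larger in size than that of either member called by DESeq2, with an adjusted p of 0.113 in edgeR's quasi-likelihood test and 4.43e-09 in DESeq2. In edgeR it passed without wild type 5 (adjusted p 0.0423) or with no filter on low counts (0.00942).

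Dact2, a regulator of Dishevelled, had 4.68, 3.87 and 4.06 FPKM in wild type 2, 3 and 5 and 2.60, 2.18 and 2.31 in mutant 1, 5 and 10. The groups were well apart, at a log2 fold change of −0.80 (SE 0.14) and an adjusted p of 0.199 in edgeR's quasi-likelihood test and 6.4e-04 in DESeq2, which lost the call without mutant 5 (0.060). Fst, an activin antagonist that is also a target gene of the pathway, had 4.84, 4.64 and 4.61 FPKM against 3.39, 1.94 and 2.30. Its groups did not overlap (log2 fold change −0.86, SE 0.20, adjusted p 0.405 in edgeR's quasi-likelihood test and 0.0157 in DESeq2), and its DESeq2 call was lost without wild type 2, wild type 3, mutant 5 or mutant 10 (adjusted p 0.113 to 0.264).

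Of the genes that DESeq2 did not call with all 6 hearts, Ror1, a receptor of Wnt5a, had 6.15, 6.70 and 4.67 FPKM in wild type 2, 3 and 5 and 8.12, 9.63 and 8.15 in mutant 1, 5 and 10. All mutant hearts were higher, with a log2 fold change of 0.59 (SE 0.14, adjusted p 0.436 in edgeR's quasi-likelihood test and 0.0618 in DESeq2). The target genes and sinus venosus markers Tbx3 and Isl1 had log2 fold changes of −0.53 and −0.66, the TCF co-repressor Tle1 −0.31, and Nfatc2, a transcription factor of the calcium branch, 0.47. In each of these 4 genes the groups did not overlap. Among the genes just named, DESeq2 without wild type 5 called Ror1 (adjusted p 0.00616), Tbx3 (0.0103) and Tle1 (0.0415), and Ror1 also without wild type 3 (0.048). They were not all of the list's calls, which ranged from 1 to 9 in DESeq2 with each heart left out. Daam2, of the planar cell polarity genes, had overlapping groups and a log2 fold change of −0.66 (SE 0.23, DESeq2 adjusted p 0.304 with all 6 hearts). Its lowest adjusted p over all alternatives was 7.4e-12. Over all genes DESeq2 called 447 without wild type 5 and 107 without wild type 3, against 133 with all hearts. Of the 13 genes of the beta-catenin destruction complex none had an unadjusted p under 0.05 and all had a 95% interval within −1 and 1. In 2 of them (15.4%), Csnk1a1 and Tnks2, the groups did not overlap, at log2 fold changes of 0.099 and 0.24, against 11.2% of all genes tested. The corresponding counts were 1 of 7 (14.3%) for Dishevelled and its regulators and 2 of 11 (18.2%) for the calcium branch. Among the 12 usual target genes of the pathway 10 were tested, of which 7 had a lower mean in the mutant hearts, as did 8774 of all 17473 genes. At an unadjusted p under 0.05, 3 were lower (Fst, Tbx3 and Isl1), or 30.0% against 2.59% of all genes tested, and none higher. Tbx3 and Isl1 are also among the sinus venosus markers above.

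**Figure D5:**
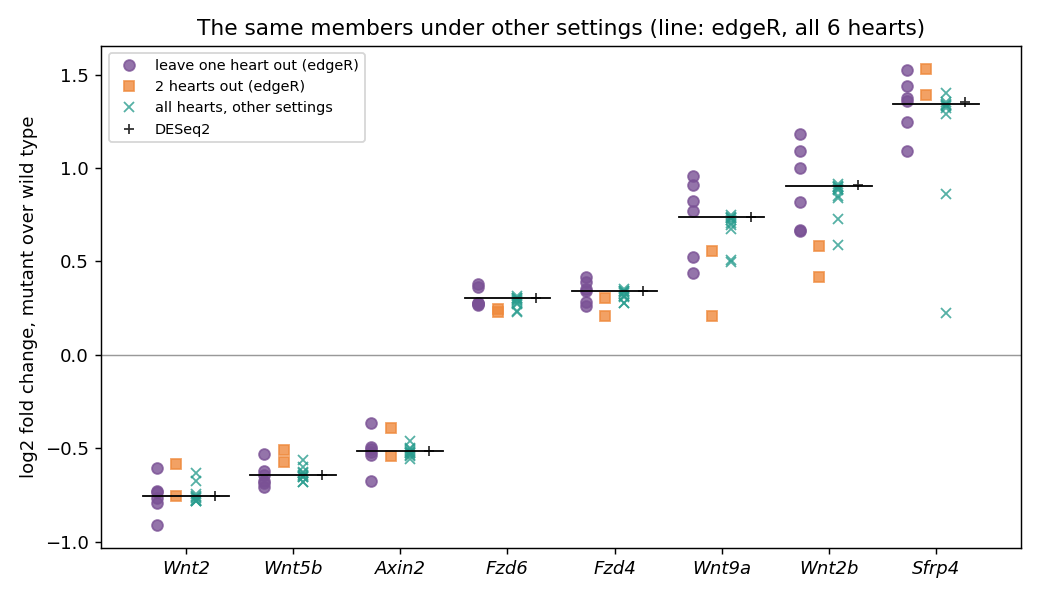
Log2 fold change (y axis, mutant over wild type) of the 8 members with an unadjusted p under 0.05 under the processing alternatives, except DESeq2 with 1 heart left out. The horizontal line is edgeR's quasi-likelihood fit to all 6 hearts. In edgeR, circles leave out 1 heart and squares leave out 2. Crosses are other settings and plus signs DESeq2, both with all 6 hearts. All signs held. The lowest value of Wnt9a, 0.21, is the one without wild type 5 and mutant 10, and the lowest of Sfrp4, 0.23, is on the log2(FPKM + 1) scale.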

How the data were processed

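RNA of 6 whole hearts, 3 in each group, was sequenced in pairs of reads on an Illumina NovaSeq from TruSeq libraries. According to the methods, STAR placed the trimmed reads on the mouse genome (mm10) and featureCounts assigned those that mapped uniquely to genes of GENCODE M19, while the submitters' processing notes name HTSeq and DESeq2. The authors deposited raw counts per gene, without normalization. They also deposited FPKM, each of which is the count over a fixed gene length and over the heart's total (largest relative deviation 5e-14), together with FPKM means of the groups, which were not used here.

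Counts of 46983 genes were fitted with edgeR 4.0.16 in R 4.3.3 (TMM, filterByExpr defaults, with 10 as the minimum count and 15 as the minimum total, quasi-likelihood F test, two-sided, no covariate), with Benjamini-Hochberg adjustment over the 17473 genes that passed. The SE is the size of the log2 fold change over the square root of F. FPKM was used for levels and marker sums, and for tests only in the limma trend fits named next. Alternatives were DESeq2 1.42.0, limma 3.58.1 (voom, and trend fits on log2 of FPKM plus 1 or 0.1), other size factors and filters, a robust dispersion, Xist as a covariate, a correction for gene length, a looser threshold of 0.1, and the removal of each heart. The removal of 2 hearts at a time was added after seeing the data. Labels do not say whether littermates were used. The p-values set the difference between the groups against the spread between hearts within them. They take the hearts as independent, which could not be checked.

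Values of every heart are given for members with an unadjusted p under 0.05 in edgeR or an adjusted p under 0.05 in DESeq2, for the 2 highest members of each role, and for members that did not exceed 3 counts in any heart of 1 group only. Of the other pathway genes, at most the 8 with the smallest p are named by this rule, and Daam2, Csnk1a1 and Tnks2 are named besides them. The members, the lists of pathway genes and markers and these rules were chosen with earlier results of these data known. Since the libraries had no molecular identifiers, limits from counts cover counting error only. Positions come from GENCODE M21 (GRCm38), which matched all 54 members.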

Additional observations from a re-analysis of the deposited data

How the results depend on the processing

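Wnt2, Wnt5b, Axin2, Wnt2b, Wnt9a, Fzd4, Fzd6 and Sfrp4 kept their direction under every alternative run. The number of members with an adjusted p under 0.05 was 0 in every edgeR and limma setting and 2 in DESeq2. With each heart left out it ranged from 0 to 3 in DESeq2 (1 without wild type 2, 3 without wild type 5, 2 without mutant 1). The number with an unadjusted p under 0.05 ranged from 4 (without mutant 5) to 14 (without wild type 5) in edgeR and from 5 to 14 in DESeq2, and the members' median log2 fold change from −0.10 (without wild type 5) to 0.056 in edgeR and from −0.11 to 0.054 in DESeq2. Without wild type 5 and mutant 5 that median was −0.10. Of the other pathway genes, DESeq2 called 3, edgeR without a filter on low counts 1, and edgeR without wild type 5 and mutant 5 also 1. With each heart left out the count ranged from 0 to 2 in edgeR (2 without wild type 5) and from 1 to 9 in DESeq2, and at an unadjusted p from 6 (without mutant 10) to 19 (without wild type 5) in edgeR and from 8 to 19 in DESeq2. Without wild type 5 and mutant 5 it was 17, with a median log2 fold change of −0.097, against −0.073 to 0.068 with 1 heart left out. Over all genes, DESeq2 called 133 with all hearts. With each heart left out it called between 71 (without mutant 5 or mutant 10) and 447 (without wild type 5). In edgeR the calls over all genes were 34 without a filter, 44 without wild type 5, 6 with the length correction, and 9 with each removal of 2 hearts. The cause was not tested.

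With 1 heart left out in edgeR, the log2 fold change of 23 of the 46 tested members changed sign at least once, and that of none of the 8 named first did. Sign changes among the members with values for every heart, under any alternative, were as follows. Porcn was −0.0062 and −0.0071 on log2 of FPKM plus 1 or 0.1 and −0.019 with upper-quartile factors, Sfrp1 −0.019 with the length correction, and Tcf7l1 −0.029 with Xist as a covariate. With hearts left out, the ranges in edgeR, pairs of hearts included, were −0.018 to 0.276 for Sfrp2, −0.026 to 0.10 for Sfrp1, −0.24 to 0.19 for Wnt5a, −0.20 to 0.24 for Lrp6, −0.067 to 0.16 for Porcn, −0.18 to 0.15 for Tcf7l1 and −0.064 to 0.093 for Tcf7l2. In DESeq2 with 1 heart left out, the reversed values were −0.016 for Sfrp2, 0.18 for Wnt5a, −0.12 for Lrp6, −0.068, −0.015 and −0.025 for Porcn, −0.12 and −0.025 for Tcf7l1 and −0.033 for Tcf7l2.

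No paired analysis was possible because the sources used here give no litter or other pairing of the hearts. With 3 hearts in each group, the 95% intervals set the limit of detection.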
